A study of Mus musculus with 5 samples.

Results

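The cytosolic ribosomal protein genes were taken from the mm10 annotation (GENCODE release M21) as the protein-coding genes whose symbol is Rpl or Rps, then digits, then at most 1 lower-case letter. The rule found 76 of 21938 protein-coding genes, 46 for the large ribosomal subunit (Rpl) and 30 for the small subunit (Rps), and used no measured value. Rpl3l, Rpl10l, Rpl39l and Rps27l, which are paralogs of the genes they are named after, met the pattern as well. Rplp0, Rplp1, Rplp2, Rpsa and Fau are among the genes that encode canonical ribosomal proteins under other symbols and were counted separately.

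Binding of NEUROD2, a basic helix-loop-helix transcription factor of differentiating excitatory neurons, was mapped by ChIP-Seq in the dorsal telencephalon (cortex) of BALB/c mice at embryonic day 14.5 (E14.5). The chromatin came from pooled embryos and was precipitated with 3 NEUROD2 antibodies, a mouse antibody (ab1) and 2 rabbit antibodies (ab2 and ab3), with 1 library each. A GFP antibody from mouse served as the control of ab1, and 1 rabbit GFP antibody as the shared control of ab2 and ab3, and these control libraries enter the data only through the peak calls. All libraries are of a single condition, so the antibodies are 3 measurements of it and no contrast between conditions, and no test between groups, was possible. With peaks alone, neither the cell types in the tissue nor the expression of the genes was measured. The ab1 list was the longest with 51841 peaks, the ab2 list had 35310 and the ab3 list 7470, and the depth of the libraries was not used here. Each peak carries a score, 10 times the −log10 of its p-value from peak calling, which starts at the threshold of 50 and is not scaled between libraries, so scores were compared within an antibody only.

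Ribosomal proteins are made in nearly every cell, and their genes are among the most strongly and evenly transcribed in the genome. Their promoters are short, mostly lack a TATA box and start transcription at a C within a run of pyrimidines, and the mRNAs keep this 5′ terminal oligopyrimidine tract, through which their translation responds to growth signals. NEUROD2 and its relatives recognise the E-box, CANNTG, and most often CAGCTG or CAGATG. Mutations in several of these genes cause Diamond-Blackfan anaemia in humans.

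The promoters of 4 members are shown because they cover the range of what the peak lists held. Rpl27 had the highest ab1 score of all members and no ab2 peak, Rpl13a had peaks of ab1 and ab2, Rpl36a had a peak of ab2 only, and Rps23 had no peak of any antibody within 50 kb. The sequences are from RefSeq on GRCm38.p6, the mm10 assembly, from 250 bases before to 50 after the RefSeq start, on the gene's own strand, with every CANNTG in capitals. Of the 76 members, 57 had a promoter in the RefSeq table used.
Rpl27 (chr11:101441995-101442294, plus strand): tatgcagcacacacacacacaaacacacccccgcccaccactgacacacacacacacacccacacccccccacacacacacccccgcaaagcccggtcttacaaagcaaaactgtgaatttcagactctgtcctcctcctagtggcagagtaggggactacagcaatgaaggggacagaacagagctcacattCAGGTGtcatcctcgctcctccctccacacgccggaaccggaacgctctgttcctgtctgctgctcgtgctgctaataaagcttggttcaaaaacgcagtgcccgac
Rpl13a (chr7:45128696-45128995, minus strand): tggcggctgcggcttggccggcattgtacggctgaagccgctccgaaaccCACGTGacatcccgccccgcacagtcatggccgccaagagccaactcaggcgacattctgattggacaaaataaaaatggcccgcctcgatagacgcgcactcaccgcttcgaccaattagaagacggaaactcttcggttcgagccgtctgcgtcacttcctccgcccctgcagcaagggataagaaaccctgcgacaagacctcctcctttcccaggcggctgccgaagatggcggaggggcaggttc
Rpl36a (chrX:134585404-134585703, plus strand): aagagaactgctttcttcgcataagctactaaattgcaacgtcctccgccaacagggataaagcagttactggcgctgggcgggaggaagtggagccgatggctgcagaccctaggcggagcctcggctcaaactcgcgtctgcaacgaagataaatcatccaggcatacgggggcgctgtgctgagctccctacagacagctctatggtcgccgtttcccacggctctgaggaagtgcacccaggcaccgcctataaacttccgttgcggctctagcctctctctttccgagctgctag
Rps23 (chr13:90922872-90923171, plus strand): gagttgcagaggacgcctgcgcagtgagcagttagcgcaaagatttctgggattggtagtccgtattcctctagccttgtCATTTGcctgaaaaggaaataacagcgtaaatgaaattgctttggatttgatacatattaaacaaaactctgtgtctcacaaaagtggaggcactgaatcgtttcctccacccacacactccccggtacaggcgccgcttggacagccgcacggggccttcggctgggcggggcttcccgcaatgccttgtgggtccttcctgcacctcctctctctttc
The promoters of Rpl27, Rpl13a and Rps23 each held 1 E-box, CAGGTG at position -57, CACGTG at position -200 and CATTTG at position -170 from the first transcribed base, and that of Rpl36a held none. None of the 3 was an extended E-box, which is a CANNTG with G or T as its first N and C or A as its second N, followed by G or T, searched on both strands.

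A promoter peak was defined as a peak whose midpoint lay within 1 kb of the transcription start site (TSS) of the transcript with the longest span. An ab1 promoter peak was found at 40 of 76 members (52.6%, 95% Wilson interval 41.6 to 63.5%), against 35.3% of all protein-coding genes, expressed in the cortex or not. An ab2 promoter peak was found at 18 of 76 (23.7%, 15.5 to 34.4%), against 22.7% of all protein-coding genes. Antibody ab3, the shortest list, had a promoter peak at 1 member only, Rpl32 (1.32%, 0.233 to 7.08%), against 1.61%. The members' share was thus above the background for ab1 and close to it for ab2 and ab3. Over the 3 antibodies it was 25.9 ± 25.7% (SD, n = 3 libraries), against 19.9 ± 17.0% for all protein-coding genes. The 3 lists differ in antibody and length, so this SD is not a spread between replicates of 1 antibody. Regions were formed by merging overlapping peaks and keeping those with at least 2 antibodies. Such a region lay at the promoter of 13 members (17.1%, 10.3 to 27.1%), against 20.8% of all protein-coding genes. The intervals cover counting error only.

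The excess in ab1 consisted of low-scoring peaks. With a score of at least 100 required, 16 members (21.1%, 13.4 to 31.5%) kept an ab1 promoter peak, against 24.0% of protein-coding genes. At 200 and above, only Rpl27 and Rpl32 remained (2.63%, 0.725 to 9.10%), against 13.5%. For ab2, 4 members had a score of at least 100 (5.26%, 2.07 to 12.8%), against 13.0%. Of the score limits used, the members' ab1 share was above the background only without one. With any annotated start allowed, a setting chosen after the data were seen, 18 members had an ab1 score of at least 100 (23.7%, 15.5 to 34.4%), against 27.9% of protein-coding genes, and 4 of at least 200 (5.26%, 2.07 to 12.8%), against 16.6%. For ab2, 6 members then reached 100 (7.89%, 3.67 to 16.2%), against 16.0%.

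**Figure D1:**
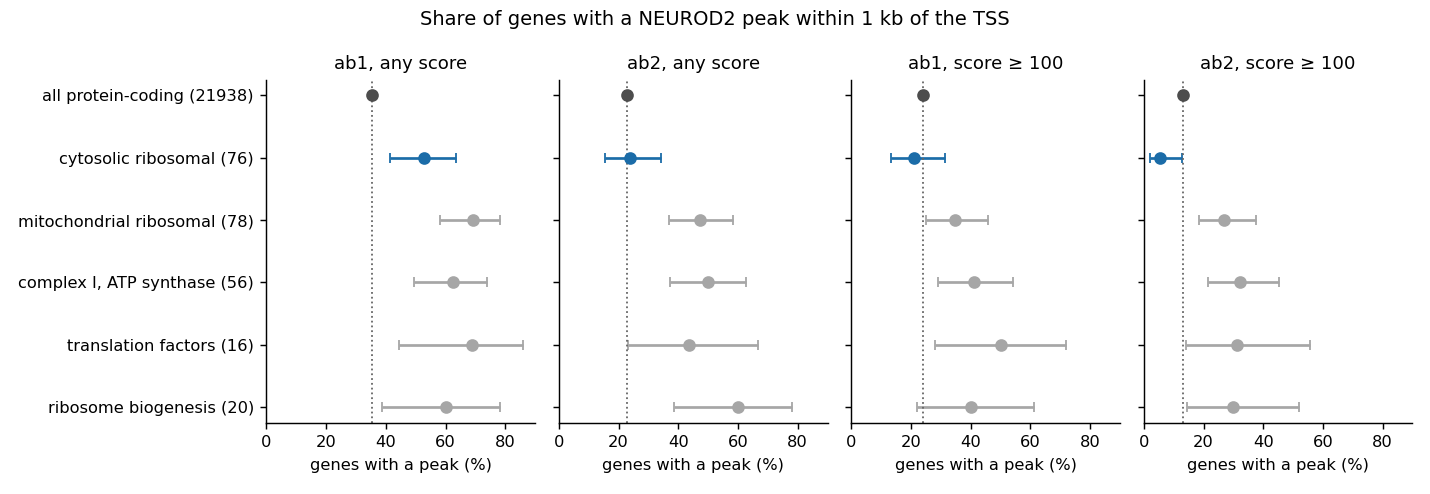
Share of genes with a NEUROD2 promoter peak (x axis, percent) for all protein-coding genes, the cytosolic ribosomal protein genes (blue) and 4 related lists, with the number of genes in brackets. Points are shares, bars 95% Wilson intervals that cover counting error only, and the dotted line is the share of all protein-coding genes. The cytosolic ribosomal protein genes stand at 52.6% for ab1 at any score and at 21.1% at a score of at least 100.

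The scores themselves showed the same. The 40 ab1 promoter peaks of members had a median score of 81.2 (quartiles 69.9 and 128.9, range 53.8 to 1009), and the 7738 protein-coding genes with an ab1 promoter peak had a median of 150.1. In the ranking of all ab1 peaks, the members' median was at percentile 25.7, and that of protein-coding promoters at percentile 50.2. The 18 ab2 promoter peaks had a median of 69.0 (range 52.6 to 590.8), against 114.6 for protein-coding genes, and a median percentile of 20.9, against 45.9. Most ribosomal protein promoters that had a peak thus had one from the lower part of its list.

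From the starts used, the strongest promoter peaks were at large subunit genes, but at other principal starts the small subunit genes Rps10 and Rps14 had ab1 scores of 908.2 and 291.8. Rpl32 was the only member with peaks of all 3 antibodies, scoring 560.3 (ab1), 590.8 (ab2) and 120.7 (ab3). Their midpoints lay at +294, +98 and +186 bp from its TSS, all 3 in the first intron. Rpl27 had the highest ab1 score, 1009, at +151 bp, and no ab2 or ab3 promoter peak. Its nearest ab2 midpoint lay 23633 bp away. Of 394 protein-coding genes with an ab1 promoter score of at least 1000, only 9 had no ab2 promoter peak, and Rpl27 was among them, so its ab1 peak rests on 1 library. Below these came Rpl35a at 191.8, Rpl7 at 191.4 and Rpl13a at 175.9 for ab1, all under 200. For ab2 the order was Rpl32, Rpl13a at 164.8, Rpl36a at 119.7, Rpl37 at 107.5 and Rpl5 at 97.7, all of the large subunit from the starts used. At other principal starts Rps10 had 222.5 and Rps14 had 131.0 for ab2, which would place Rps10 next after Rpl32 and Rps14 next after Rpl13a.

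Peaks of both ab1 and ab2 were found at 13 members (17.1%), against 20.6% of all protein-coding genes, 9 of the large subunit (Rpl5, Rpl11, Rpl13a, Rpl14, Rpl15, Rpl30, Rpl31, Rpl32, Rpl37) and 4 of the small subunit (among them Rps4x, Rps20, Rps21). The lowest pair was Rpl11 with 53.8 and 55.3. Rpl5 and Rpl11, which bind the 5S ribosomal RNA and, outside the ribosome, the p53 regulator MDM2, were both in this group. Rpl5 had scores of 115.5 and 97.7.
A peak of ab2 without ab1 was found at 5 members (6.58%), against 2.07% of all protein-coding genes. All were of the large subunit, with Rpl8 at 53.1, Rpl39 at 55.1, Rpl10a at 60.1, Rpl36 at 61.4 and Rpl36a at 119.7. Rpl39 and Rpl36a are X-linked.

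A peak of ab1 without ab2 was found at 27 members (35.5%), against 14.6% of all protein-coding genes. Of these, 14 were large subunit genes (Rpl4, Rpl7, Rpl7a, Rpl12, Rpl13, Rpl18, Rpl21, Rpl27, Rpl29, Rpl34, Rpl35, Rpl35a, Rpl38, Rpl41) and 13 small subunit genes (among them Rps3, Rps10, Rps12, Rps13, Rps15, Rps18, Rps19, Rps24, Rps25, Rps27a, Rps27l, Rps28). Rps27a, which encodes a ubiquitin fused to a ribosomal protein, had a score of 75.9, and Rps3, also known as a DNA repair protein, one of 76.6. From the starts used, the highest small subunit scores were 127.8 for ab1, at Rps15, and 95.7 for ab2, at Rps20, and at other principal starts they were 908.2 and 222.5, both at Rps10. By subunit, an ab1 promoter peak was at 23 of 46 large (50%, 36.1 to 63.9%) and 17 of 30 small subunit genes (56.7%, 39.2 to 72.6%), and an ab2 peak at 14 of 46 (30.4%, 19.1 to 44.8%) and 4 of 30 (13.3%, 5.31 to 29.7%). The intervals of the subunits overlapped for both antibodies. With any annotated start, an ab2 peak was at 15 of 46 large (32.6%) and 7 of 30 small subunit genes (23.3%).

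**Figure D2:**
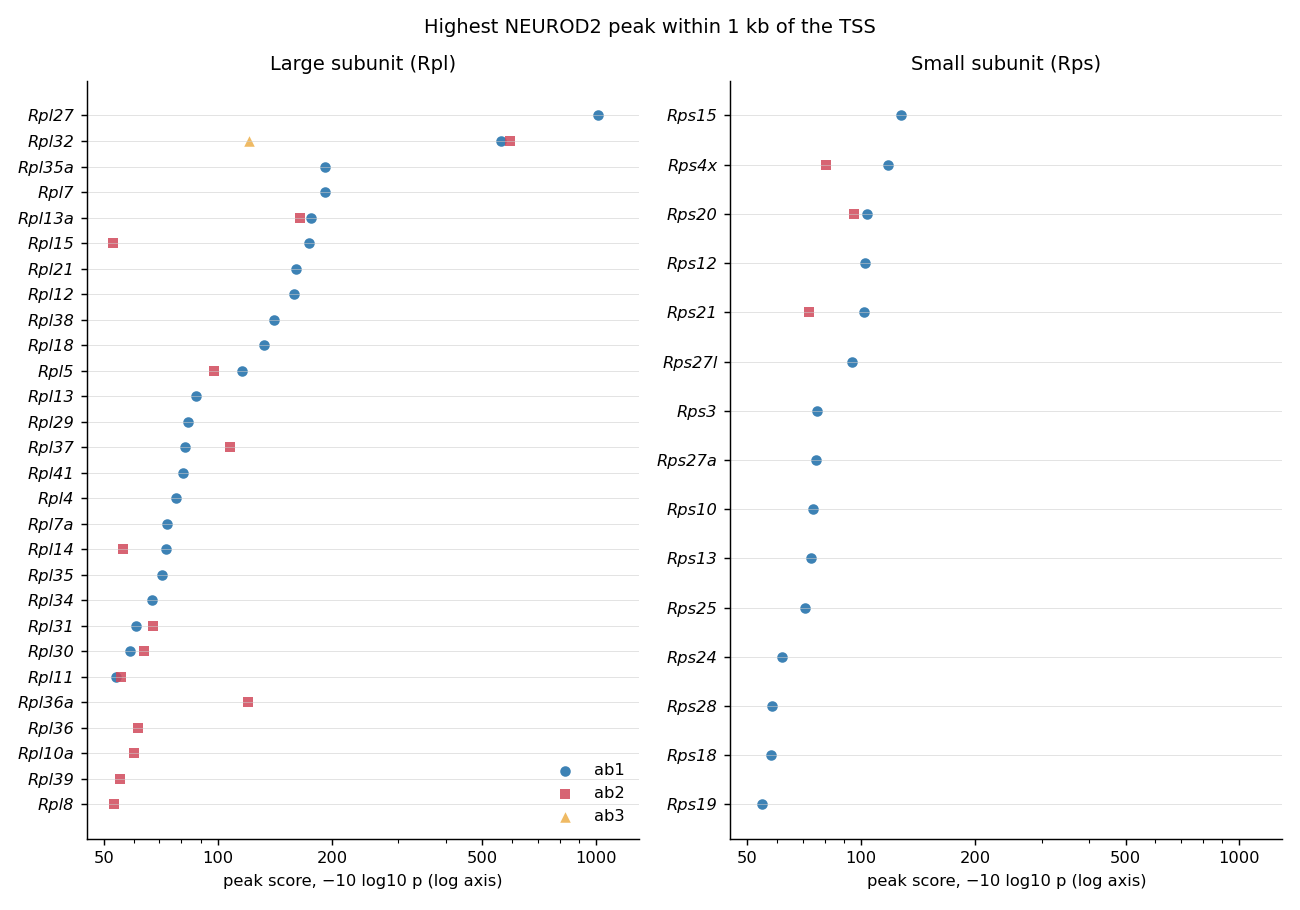
Highest peak score within 1 kb of the TSS (x axis, 10 times −log10 p, log axis) for the ribosomal protein genes named in the text that had a promoter peak, large subunit left and small subunit right, by antibody (blue circles ab1, red squares ab2, orange triangle ab3, 1 library each). Scores are comparable within an antibody only. From the starts used, that of the longest transcript, Rpl27 and Rpl32 stand apart and no small subunit gene passes 127.8, whereas at other principal starts Rps10 (908.2) and Rps14 (291.8) would for ab1.

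No promoter peak of any antibody was called at 31 members (40.8%), against 62.6% of all protein-coding genes. They were 18 of the large subunit (among them Rpl3, Rpl3l, Rpl6, Rpl9, Rpl10, Rpl10l, Rpl17, Rpl19, Rpl22, Rpl23, Rpl23a, Rpl24, Rpl26, Rpl27a, Rpl28, Rpl37a, Rpl39l) and 13 of the small subunit (among them Rps2, Rps6, Rps7, Rps9, Rps14, Rps15a, Rps16, Rps23, Rps26, Rps27, Rps29). Their nearest ab1 midpoint lay between 1764 bp (Rps2) and 167028 bp (Rpl39l) from the TSS, with a median of 13467 bp, and 11 of the 31 had one within 10 kb. Rps6, the target of the S6 kinases, was in this group, with its nearest ab1 peak of 62.0 at −15946 bp. Of the paralogs, Rpl3l, known from striated muscle, and Rpl10l and Rpl39l, known from testis, had no promoter peak, and Rps27l, a p53 target, had an ab1 peak of 94.3 at −8 bp.

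The choice of TSS changed a few members. In 43 members the annotated starts spread over more than 1 kb. When any annotated start was allowed, the counts were 43 for ab1 and 22 for ab2, against 39.8% and 26.9% of all protein-coding genes. The genes that gained an ab1 peak were Rps14, Rpl3 and Rps2. Rps14 gained an ab1 peak of 291.8 and an ab2 peak of 131.0 at +81 and −63 bp of a principal start that lies 27532 bp downstream of the start used. Rpl3 gained an ab1 peak of 66.2 and an ab2 peak of 75.2, Rps2 an ab1 peak of 61.3, and Rps24 and Rps10 an ab2 peak of 82.0 and 222.5. Rps10 had an ab1 peak of 74.6 at +122 bp of the start used, and a stronger ab1 peak of 908.2 at +1494 bp that the 1 kb limit left out and that lay at +370 bp of another principal start. The merged region of this peak is nearer to the TSS of RPS10-NUDT3, a readthrough gene whose span also holds it, at 93 bp, so the scores of 908.2 and 222.5 given for Rps10 can belong to either gene. Members near the limit on its inner side included Rpl35 at +665 bp with 71.0 and Rpl11 at −619 bp with 53.8 for ab1, and those just outside it were Rps10, Rpl41 at +1608 bp with 82.8 (beside its nearer peak of 80.8) and Rps2 at +1764 bp. Rps14 and Rps10 are thus the members with strong peaks that depend on the start.

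Overlap with ab2 was counted by ab1 score. Of the 40 members with an ab1 promoter peak, 13 had an ab2 promoter peak as well (32.5%, 20.1 to 48.0%), against 58.5% of the 7738 protein-coding genes with ab1. Among ab1 scores of 50 to 100, which held 60% of the members' and 31.9% of all protein-coding ab1 promoters, 6 of 24 members (25%, 12.0 to 44.9%) and 29.3% of protein-coding genes had ab2. Between 100 and 200 these were 6 of 14 members (42.9%, 21.4 to 67.4%) and 54.3%, and from 200 it was 1 of 2 members and 86.1%. The members' share was below the background in each of the 3 bands, the highest of which held only 2 members (9.45 to 90.5%). Of the mitochondrial ribosomal protein genes with ab1 scores of 50 to 100, 15 of 27 (55.6%, 37.3 to 72.4%) had ab2. Between 100 and 200 it was 5 of 11 (45.5%, 21.3 to 72.0%), and from 200 it was 15 of 16 (93.8%, 71.7 to 98.9%). For the complex I and ATP synthase genes the 3 bands gave 5 of 12 (41.7%), 9 of 11 (81.8%) and 11 of 12 (91.7%). The antibody, its host species and its control library change together between ab1 and ab2, and their part in the difference cannot be told apart.

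**Figure D3:**
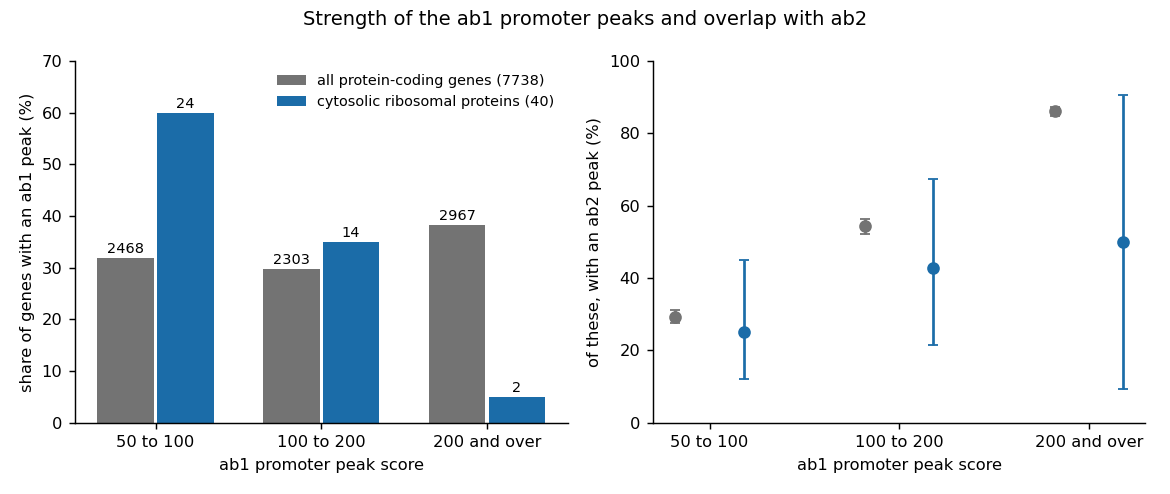
Left, share of the genes with an ab1 promoter peak (y axis, percent) in 3 bands of ab1 score, with the number of genes above each bar, for all protein-coding genes (grey) and the ribosomal protein genes (blue). Right, the share of those genes that also have an ab2 promoter peak (y axis, percent), with 95% Wilson intervals. In the band of 50 to 100, 60% of the members' peaks are found, and 25% of these members have ab2.

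Promoter peaks lie within 1 kb of the TSS by definition, and their place inside this window was described. The ab1 midpoint lay at a median of +121 bp from the TSS (quartiles −38.5 and +187 bp), 27 of 40 lay downstream of it and 35 of 40 within 300 bp, and for all protein-coding genes the median was +100 bp. For ab2 the median was +96.5 bp, against +100 bp. By annotation, 14 ab1 midpoints were in intron 1, 13 in an exon and 13 upstream. The ab1 peaks were 966 bp wide at the median, against 1133 bp for protein-coding genes. The genes themselves are short, with a median span of 3266 bp against 17425 bp. The mitochondrial ribosomal protein genes, at 938.5 bp, and the genes of complex I and ATP synthase, at 982 bp, had ab1 peaks of much the same width as the members. Within 300 bp of the TSS lay 87.5% of the members' ab1 peaks against 74.0%, and 72.2% of their ab2 peaks against 74.3%.

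Members of the Diamond-Blackfan list (among them Rps7, Rps10, Rps19, Rps24, Rps26, Rpl5, Rpl11, Rpl35a) had an ab1 promoter peak in 6 of 9 (66.7%, 35.4 to 87.9%), against 35.3% of protein-coding genes, and an ab2 peak in 2 of 9 (22.2%, 6.32 to 54.7%), against 22.7%. With any annotated start, 4 of 9 had an ab2 peak (44.4%, 18.9 to 73.3%), with Rps10 and Rps24 added, against 26.9%. From the starts used, Rps7 and Rps26 had no peak of ab1 or ab2. Rps19, the gene of this list most often mutated in patients, had an ab1 score of 54.5, near the calling threshold. The canonical genes outside the pattern had an ab1 peak in 5 of 6 (83.3%, 43.6 to 97.0%) and an ab2 peak in 3 of 6 (50%, 18.8 to 81.2%), against the same backgrounds. Rplp0, Rplp1 and Rplp2, which form the stalk of the large subunit, had ab1 scores of 81.9, 123.9 and 77.9 and no ab2 peak. Rpsa and Fau, of the small subunit, had ab1 scores of 115.3 and 87.9 and ab2 scores of 93.9 and 73.7. These genes thus fell within the score range of the members.

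Other genes of protein synthesis and energy supply were counted in the same way, beside 35.3% of all protein-coding genes for ab1 and 22.7% for ab2. Mitochondrial ribosomal protein genes (Mrpl and Mrps) had an ab1 promoter peak in 54 of 78 (69.2%, 58.3 to 78.4%) and an ab2 peak in 37 of 78 (47.4%, 36.7 to 58.4%). Genes of complex I and the ATP synthase had 35 of 56 (62.5%, 49.4 to 74.0%) and 28 of 56 (50%, 37.3 to 62.7%). At an ab1 score of at least 100, the share was 34.6% (25 to 45.7%) of the mitochondrial ribosomal protein genes. It was 41.1% (29.2 to 54.1%) of the complex I and ATP synthase genes. The cytosolic ribosomal protein genes had 21.1% (13.4 to 31.5%) and all protein-coding genes 24.0%. For ab2 at this limit, in the same order, these were 26.9% (18.3 to 37.7%), 32.1% (21.4 to 45.2%), 5.26% (2.07 to 12.8%) and 13.0%. At an ab1 score of at least 200 they were 20.5, 21.4, 2.63 and 13.5%. All are from the starts used. Translation factors and other genes of pyrimidine-tract mRNAs had ab1 in 11 of 16 (68.8%, 44.4 to 85.8%) and ab2 in 7 of 16 (43.8%, 23.1 to 66.8%), and genes of ribosome biogenesis 12 of 20 for each (60%, 38.7 to 78.1%). The intervals of these small lists overlapped those of the cytosolic genes, 41.6 to 63.5% for ab1 and 15.5 to 34.4% for ab2, apart from ribosome biogenesis for ab2. Among them, with ab1 and ab2 scores in this order, were Naca, a nascent-chain binding factor, at 518.3 and 306.6, Eef1b2, an elongation factor subunit, at 187.6 and 155.0, Gar1, a subunit of small nucleolar ribonucleoproteins, at 659.3 and 532.4, with 57.7 for ab3, and Nop56, a box C/D snoRNP protein, at 365.1 and 191.7. Eef1a1, Rack1, Fbl and Ubtf had no promoter peak. For ab2, the intervals of the cytosolic genes and the mitochondrial genes (36.7 to 58.4%) did not overlap from the starts used, but with any annotated start they did, at shares of 28.9% and 48.7%. The same held for ab2 and the complex I and ATP synthase genes, at 51.8% (39.0 to 64.3%) with any annotated start. For ab1 the intervals of both lists overlapped that of the cytosolic genes in both settings.

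What else the members shared was compared with their peaks. From the starts used, 35.3% of all protein-coding genes had an ab1 and 22.7% an ab2 promoter peak. A snoRNA gene lay within the span of 27 members, and 15 of these had an ab1 and 7 an ab2 promoter peak, against 25 and 11 of the 49 others. Another protein-coding TSS lay within 1 kb in 15 members, all of them divergent pairs such as Rpl12 with Lrsam1, Rpl35a with Iqcg and Rps28 with Ndufa7. Of these 15, 11 had an ab1 peak and only Rpl15, beside Nkiras1, an ab2 peak, against 29 and 17 of the 61 others. With any annotated start allowed, which was chosen after the data were seen, these were 13 and 3 of the 15 (86.7 and 20%), Rpl3 and Rps24 having gained an ab2 peak, and 30 and 19 of the 61 (49.2 and 31.1%), against 39.8 and 26.9% of protein-coding genes. In these pairs a peak can belong to either gene. Ribosomal protein pseudogenes, which resemble the members' mRNAs and can draw shared reads, had an ab1 promoter peak in 9 of 282 (3.19%, 1.69 to 5.95%) and an ab2 peak in 8 of 282 (2.84%, 1.44 to 5.50%). Reads that map to several positions were removed by the authors, so a member's exons that match a pseudogene could lose reads, and how many was not tested.

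The letters of the member promoters were compared with all protein-coding promoters over the same window, 250 bases before to 50 after the TSS used, on both strands. CCGGAAG, the core bound by ETS factors such as GABP, was in 18 of 76 (23.7%, 15.5 to 34.4%), against 11.2%, and AAGATGGCG, a YY1 motif, in 4 of 76 (5.26%), against 1.88%. TATAAA was in 7.89% against 12.3%, and GGGCGG in 47.4% against 44.8%. The first transcribed base was C in 30.3% against 17.3%, and C followed by 4 pyrimidines in 9.21% against 2.28%. These shares depend on the annotated start, which for several members lies away from the RefSeq start, as for Rpl27, whose RefSeq start is at -53 bp from the start used. E-boxes were fewer than at other promoters: CANNTG was in 56.6% (45.4 to 67.1%) against 69.3%, the extended E-box in 8 of 76 (10.5%, 5.43 to 19.4%) against 23.6%, and CAGCTG in 5 of 76 (6.58%, 2.84 to 14.5%) against 15.7%, none of the 5 with an ab1 peak. From 500 bases before to 500 after the TSS, CAGCTG was in 15 members, 7 with and 8 without an ab1 peak. CAGATG was in 15.8% against 14.8%. The G+C content was 55.3% at the median, against 55.7%. A match is a description of the letters only, and CAGCTG matches can also be extended E-boxes.

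The extended E-box was absent from the middle of the ab1 promoter peaks of the ribosomal protein genes at the starts used. It was searched in the central 200 bp of each peak and in windows of 200 bp that lie 1000 bp outside its ends. Of the 13 promoter regions with at least 2 antibodies, 0 held it in the centre, which allows a share of up to 23.1%, and 3 of 26 flanking windows did, against 20.8% of the centres of 4101 protein-coding promoter regions. Of the 40 ab1 promoter peaks, taken by themselves after the data were seen, 0 held it in the centre, which allows a share of up to 7.50%, and 17 of 80 flanking windows did (21.2%). With any annotated start allowed, it was in the centre of 1 of 16 member regions (6.25%, 1.11 to 28.3%), that of the Rps10 region with scores of 908.2 and 222.5, against 26.9% of protein-coding regions, and of 1 of 44 ab1 peaks (2.27%, 0.402 to 11.8%), against 25%. Over all protein-coding ab1 promoter peaks at the starts used it was in 19% of the centres and 20.6% of the flanks. The G+C content of the centres was 65.1% for the members and 67.7% for protein-coding genes. For ab2 it was in 3 of 18 centres (16.7%, 5.84 to 39.2%), those of Rpl32, Rpl36a and Rpl39, against 21%. Within the whole ab1 peak it was found in 11 of 40 members (27.5%) against 64.5%, with 0.65 against 1.37 per kb. At Rpl32 it was thus in the centre of the ab2 peak and not in that of the merged region.

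**Figure D4:**
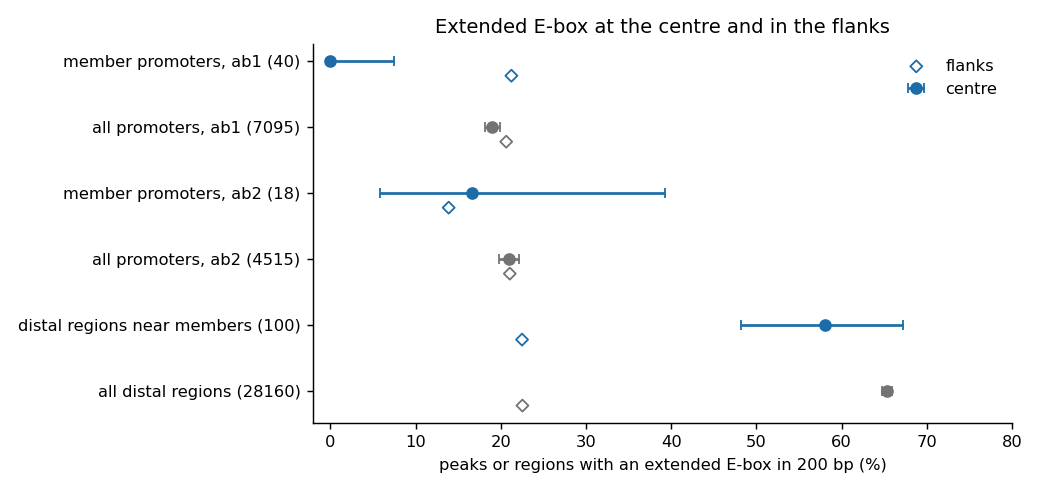
Share of peaks or regions with an extended E-box (x axis, percent) in the central 200 bp (circles, with 95% Wilson intervals, or for a share of 0 the limit of 3 counts) and in flanking windows of the same length (open diamonds), for ribosomal protein genes (blue) and all genes (grey), with the number in brackets. The members' ab1 promoter peaks stand at 0 in the centre and 21.2% in the flanks, and the distal regions near them at 58.0%.

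Within 50 kb of the members' spans lay 290 different ab1 peaks, 184 of ab2 and 34 of ab3, of which 40, 18 and 1 were promoter peaks of members and 7, 7 and 1 others lay inside a member. At least 1 ab1 peak was within 50 kb of 72 of 76 members (94.7%), against 77.6% of protein-coding genes, with a median of 4 per member against 3. For ab2 it was 64 of 76 (84.2%) against 70.3%, and for ab3 24 of 76 (31.6%) against 27.4%. Rps10 had most ab1 peaks with 13, then Rps14 with 11, Rps27l with 10 and, among others, Rps7, Rps24, Rpl13a, Rpl29 and Rpl38 with 8 each. Rpl10l, Rps23 and Rpl39l had no peak of any antibody in this range, and Rpl39 had none of ab1. The closest protein-coding TSS was that of a member for only 77 of the 290 ab1 peaks (26.6%). For ab2 it was 49 of the 184 peaks (26.6%) and for ab3 9 of the 34 (26.5%). By the starts used, most peaks of these neighbourhoods thus lay nearer to another gene. Other annotated starts were left out here, so the regions at principal starts of Rps14 and Rpl3 were assigned to Ndst1 and Syngr1. Just inside the limit of 50 kb lay an ab1 peak of 2379 near Rpl12 at 49744 bp, and just outside it one of 110.7 near Rpl4 at 50482 bp. The 290 neighbourhood peaks of ab1, member promoter peaks included, had a median score of 138.0, against 149.2 for all ab1 peaks. At the member promoters it was 81.2.

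Regions of at least 2 antibodies numbered 166 in this range, 13 at member promoters and 153 others. The median ab1 score was 101.6 at the promoters and 281.4 in the others, and the median over all regions of the genome was not computed. Of the 153, 24 had an ab1 score of at least 1000, and 3 of these 24 were within 1 kb of a protein-coding TSS. The share of such scores over all regions of the genome was not counted. For 29 of the 153 a member had the closest protein-coding TSS. Of these 29, 8 had peaks of all 3 antibodies, as did 7160 of the 32262 regions of the genome. Over the genome, 65.4% of the 28160 regions over 1 kb from the starts used held an extended E-box in the centre. Of the 29, 20 did. The highest were at Rps10, −6336 bp from its TSS, with an ab1 score of 3100, an ab2 score of 2035 and an ab3 score of 80.9, at Rpl38, −31682 bp, with 2103, 1226 and 294.8, and at Rps24, +55977 bp, with 1795, 878.5 and 95.2. Then came a second region of Rpl38, −17690 bp, with 1663, 1236 and 529.3, and a region of Rps28, +6893 bp, with 1605, 1061 and 170.6, which lies inside Kank3. The score of 3100 is shared by 661 ab1 peaks and 69 peaks score higher, so values at 3100 have no order among themselves. A closest TSS does not say which gene a region acts on.

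The extended E-box was more frequent in the centres of distal regions near the members than in those of their promoter peaks. Of 100 regions over 1 kb from the start used of every protein-coding gene, 58 held an extended E-box in the centre (58.0%, 48.2 to 67.2%). It was in 22.5% of their flanks and in the centre of 65.4% of all 28160 such regions of the genome. Both sets include regions at other annotated starts, such as those at principal starts of Rps14 and Rpl3. Of 53 regions within 1 kb of the start used of another coding gene, 12 held it in the centre (22.6%, 13.5 to 35.5%). The centres of 4 such regions are shown, all those for which a member has the closest TSS, all 3 antibodies called a peak and the motif stands in the middle. They are the central 200 bases on the plus strand of mm10, with extended E-boxes in capitals.
Rpl19, +8366 bp (chr11:98034976-98035175): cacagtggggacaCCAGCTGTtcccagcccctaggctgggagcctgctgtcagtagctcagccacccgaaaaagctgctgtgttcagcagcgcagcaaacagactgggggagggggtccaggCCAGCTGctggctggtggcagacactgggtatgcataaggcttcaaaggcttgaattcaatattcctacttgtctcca
Rpl38, −17690 bp (chr11:114650734-114650933): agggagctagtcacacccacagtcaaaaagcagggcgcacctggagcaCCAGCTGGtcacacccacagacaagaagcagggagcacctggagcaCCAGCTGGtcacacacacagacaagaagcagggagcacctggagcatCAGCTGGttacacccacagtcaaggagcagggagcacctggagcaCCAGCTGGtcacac
Rps24, +25754 bp (chr14:24512779-24512978): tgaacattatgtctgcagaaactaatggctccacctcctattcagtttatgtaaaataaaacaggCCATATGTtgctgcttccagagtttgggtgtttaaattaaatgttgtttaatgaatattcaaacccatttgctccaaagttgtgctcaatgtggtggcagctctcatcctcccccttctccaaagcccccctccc
Rps24, +55977 bp (chr14:24543002-24543201): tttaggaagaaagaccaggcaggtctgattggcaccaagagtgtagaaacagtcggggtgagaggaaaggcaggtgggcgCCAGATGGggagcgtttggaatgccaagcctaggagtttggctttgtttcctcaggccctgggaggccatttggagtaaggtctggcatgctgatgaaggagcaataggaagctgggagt
The region of Rpl19, which had no promoter peak itself, held 2 CAGCTG and scored 743.0, 592.3 and 86.7 with ab1, ab2 and ab3. The region of Rpl38 held 4 CAGCTG spaced 46 bp apart, and 89.6% of its bases were the same as the base 46 bp on, so it is a tandem repeat with an E-box in each unit. The nearer region of Rps24 held 1 CATATG and scored 1116, 325.7 and 52.1, and the farther one held 1 CAGATG. In a repeat, reads can map to more than 1 unit, and how this bears on the score at Rpl38 was not tested.

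**Figure D5:**
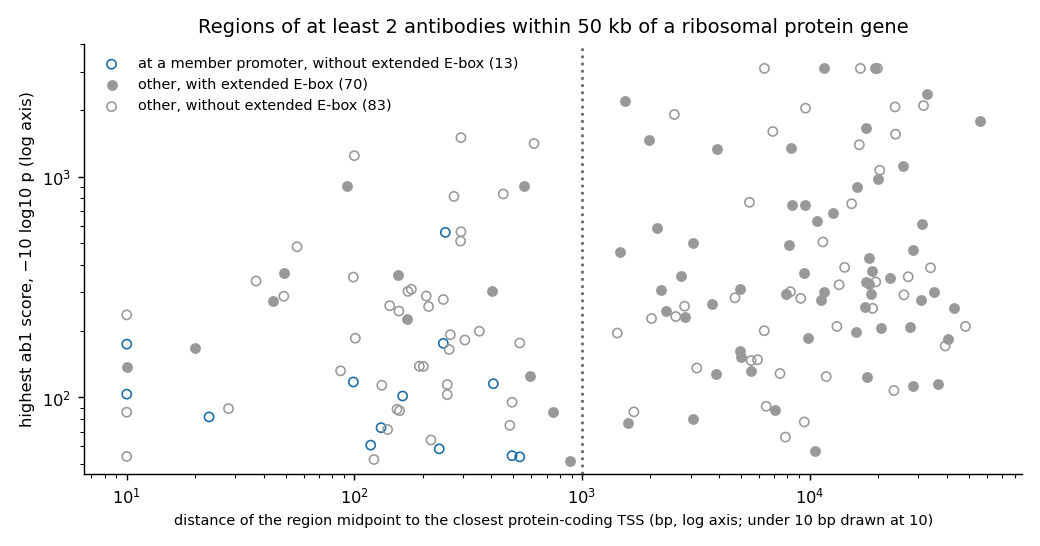
Regions of at least 2 antibodies within 50 kb of a ribosomal protein gene by distance of the midpoint to the closest protein-coding TSS (x axis, bp, log axis, 1 kb dotted) and highest ab1 score (y axis, 10 times −log10 p, log axis). Blue, the 13 at a member promoter, and grey, the 153 others, filled where the central 200 bp hold an extended E-box. All 13 promoter regions are open symbols and, apart from Rpl32, lie at ab1 scores under 176.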

How the data were processed

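NEUROD2 ChIP-Seq peaks of E14.5 BALB/c cortex were analysed for 3 antibodies with 1 library each, grouped by the labels as replicates of a single condition. The authors mapped reads to mm10 with Bowtie, removed duplicates and reads with several positions, called peaks for each antibody against the GFP library of its host species with MACS, and deposited for each peak a position and a score, 10 times the −log10 of its p-value, which is not scaled between libraries. Read depth was not used here. From these lists, promoter peaks, merged regions (overlap of at least 1 bp, at least 2 antibodies) and E-boxes were computed in Python 3.11.15 on GENCODE M21 and GRCm38.p6, with the packages pysam 0.24.0, pandas 2.3.3, numpy 2.4.6, scipy 1.17.1 and, for plots, matplotlib 3.10.9. The counting steps were tested on simulated peaks placed at known genes. No test was run: shares carry 95% Wilson intervals, with 3 counts as the limit for a share of 0, and stand beside the same share of all protein-coding genes, expressed or not. Variants of the BALB/c strain against the reference were not seen. Genes named were the members by class, apart from a few that are not reported here by name, the 5 highest scores of each antibody, the paralogs, the Diamond-Blackfan list, the canonical genes outside the pattern, and the strongest neighbourhoods. Names outside this rule, among the related lists and the start-site changes, were chosen after their values were seen. The members and the lists were chosen with earlier results of these data known. The settings varied are given in the closing section.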

Additional observations from a re-analysis of the deposited data

How the results depend on the processing

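Of 101 alternative values, 76 stayed within 1.5 times the reported count, the members' quartiles for scores and positions, the 95% interval of a reported motif share or 1 SD of the mean share over libraries, and 25 moved. These limits are wide: the ab2 peaks of at least 100 lay at a median of +26.5 bp in place of +96.5 bp, and the E-box share of 0 became 15.4% in a wider centre and 16.7% with ab2 peaks alone. With a score of at least 100, the members with a promoter peak numbered 16 for ab1 and 4 for ab2, and those with a region of at least 2 antibodies 2. With any annotated start, 18 members had an ab1 score of at least 100 and 4 of at least 200, and 6 an ab2 score of at least 100. With all 3 antibodies required, 1 member had a region, and leaving out each antibody in turn gave 1 to 13, since without ab1 or ab2 only Rpl32 remained. The mean share of members ranged from 12.5 to 38.2% when each antibody was left out. Allowing any CANNTG put an E-box in the centre of 30.8% of the 13 member promoter regions, against 50.9% of all protein-coding ones. Neighbourhood peaks within 10 kb, within 100 kb, at a score of at least 100 and with a member as the closest gene numbered 92, 479, 179 and 77 for ab1, 54, 302, 103 and 49 for ab2, and 7, 60, 14 and 9 for ab3. From 500 bases before to 500 after the TSS, the extended E-box was in 42.1% of the member promoters (59.0% of all), CAGCTG in 19.7% (41.5%) and CCGGAAG in 40.8% (19.4%). The larger windows, smaller peak sets and looser letters make these changes by construction. Starts taken from the APPRIS principal transcript, peaks of each antibody alone for the E-box, and any annotated start for the score limits, the E-box and the groups and lists, were added after seeing the data. Principal starts gave 41 members for ab1, 20 for ab2, 1 for ab3 and 14 for regions. The ab1 share stayed above that of all protein-coding genes under 6 of 9 settings that changed the peaks or the start. It was below it at a score of at least 100 and, with any annotated start, at scores of at least 100 and 200. Outside these 9, it was also below it at a score of at least 200 from the starts used (2.63 against 13.5%). The first base has no wider window. No paired analysis was possible because the GFP libraries have no peak list of their own and all 3 libraries belong to 1 group. Peak lists hold no reads, so an uncalled promoter cannot be told from one below the calling threshold of 50.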
